A study of Mus musculus with 6 samples.

Results

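Transcript levels of 9 regulators of retinal neurogenesis were followed in purified mouse retinal ganglion cells (RGCs), the projection neurons of the retina, before and after birth. The genes were Atoh7, Neurog2, Neurod1, Neurod2, Neurod4, Neurod6, Olig2, Hes6 and Myt1, taken by symbol as 9 rows of a count table that lists 24060 genes. The 9 were grouped as proneural basic helix-loop-helix (bHLH) factors, but Myt1 is a zinc finger protein without that domain, and Hes6 belongs to the Hes branch of the bHLH family rather than to the proneural one. RNA-seq was done on RGCs of C57BL/6 mice at embryonic day 18 (E18, replicates 1, 3 and 4) and at postnatal day 5 (P5, replicates 6, 8 and 9), with 3 samples per age and no treatment or transgene named for either age. The cells of both ages were obtained by immunopanning: papain-dissociated retinas were passed over antibodies that remove macrophages and then over dishes coated with antibody against CD90 (Thy1), a surface protein of RGCs. Nothing states that the samples came from separate litters or animals, so the p-values below measure the spread between these samples, which may be technical, and the data column taken as E18 replicate 1 also bears the numbers 2 and 5. Reads counted on genes totalled 81213639 to 114512853 per sample, and a level is given as CPM, the count divided by a library size that was scaled by the TMM method and set to a common depth.

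Proneural bHLH factors bind DNA as dimers with a widely expressed E protein, at a short motif called the E-box (CANNTG), and push dividing progenitors to leave the cell cycle and become neurons. In the retina, Atoh7 is required for most RGCs to form, Neurog2 acts in the progenitors that are about to differentiate, and the Neurod factors act in photoreceptor, amacrine and bipolar cell precursors and, later, in neurons. Id proteins lack the DNA-binding part and sequester E proteins. Hes and Hey repressors, many of them Notch targets, hold progenitors undifferentiated.

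Neurod2 and Neurod6 were both lower at E18 than at P5 by the test below, and Neurog2 and Neurod4 were both higher, so the bases just upstream of their start sites are shown for these 4 genes. They are from RefSeq on GRCm38.p6, whose coordinates are those of mm10, read 5′ to 3′ on the gene's strand, and end where the annotated exon begins. Capitals mark each CANNTG. The stretches are chr11:98329649-98329895 on the minus strand for Neurod2, chr6:55681264-55681513 on the minus strand for Neurod6, chr3:127632886-127633134 on the plus strand for Neurog2 and chr10:130280255-130280504 on the minus strand for Neurod4.
Neurod2: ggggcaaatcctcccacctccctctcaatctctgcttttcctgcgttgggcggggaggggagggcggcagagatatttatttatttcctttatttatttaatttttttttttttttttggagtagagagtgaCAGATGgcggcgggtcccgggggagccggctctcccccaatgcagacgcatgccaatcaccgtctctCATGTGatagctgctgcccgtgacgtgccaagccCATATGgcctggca
Neurod6: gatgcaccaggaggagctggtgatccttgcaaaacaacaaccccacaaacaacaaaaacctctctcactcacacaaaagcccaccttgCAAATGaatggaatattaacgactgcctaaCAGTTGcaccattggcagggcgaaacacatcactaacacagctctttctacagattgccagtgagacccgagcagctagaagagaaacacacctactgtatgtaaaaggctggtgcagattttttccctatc
Neurog2: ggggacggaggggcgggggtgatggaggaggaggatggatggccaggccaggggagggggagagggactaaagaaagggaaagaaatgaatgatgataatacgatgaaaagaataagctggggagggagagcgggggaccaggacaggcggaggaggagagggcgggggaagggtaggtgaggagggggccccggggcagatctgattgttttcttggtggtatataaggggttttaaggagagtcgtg
Neurod4: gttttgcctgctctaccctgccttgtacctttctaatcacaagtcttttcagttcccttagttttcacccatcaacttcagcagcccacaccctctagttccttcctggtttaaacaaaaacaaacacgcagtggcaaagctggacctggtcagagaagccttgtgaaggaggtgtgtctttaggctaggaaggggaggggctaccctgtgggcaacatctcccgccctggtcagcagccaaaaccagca
Neurod2 held 3 matches to CANNTG and Neurod6 held 2, while Neurog2 and Neurod4 held 0. All 9 genes matched a RefSeq start. In the 250 bases before it, Atoh7 and Hes6 held 3 matches each, Neurod1 held 1, and Olig2 and Myt1 held 0. Hes6 and Myt1 were also called higher at E18, so matches stood before factors called in either direction. Of the 32851 mouse promoter windows of that length, 66.2% held at least 1 CANNTG, with a median of 1, so 5 of 9 genes with a match is no more than the common share. Of the forms of CANNTG, each also counted above and sought on both strands, CAGCTG stood in the window of Hes6 and in 13% of all windows. CATCTG or its complement CAGATG stood in the windows of Atoh7 and Neurod2 and in 14.4% of all windows. CACGTG stood in the window of 0 of the 9 genes and in 6.02% of all windows. A match is a description of these letters and not a measured binding site.

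Of the 9 genes, 4 were higher at E18 (Neurog2, Neurod4, Myt1 and Hes6) and 2 were lower (Neurod2 and Neurod6). The differences ran from 15.5-fold lower at E18 for Neurod2 to 11.8-fold higher for Neurog2. Atoh7 and Neurod1 did not pass the threshold of an adjusted p of 0.05, and Olig2 had too few counts to enter the test. The test was edgeR's quasi-likelihood test over the 16449 genes that passed its filter on low counts, with Benjamini-Hochberg adjustment over all of them. Among all genes tested, 20.8% were called higher at E18, 22.5% lower and 43.4% in either direction, and 56.1% had no overlap between the samples of the ages. Of the 9 factors, 7 had no overlap. The median log2 fold change (E18 over P5) of the 8 factors tested was 0.71, beside 0.0047 for all genes tested.

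**Figure D1:**
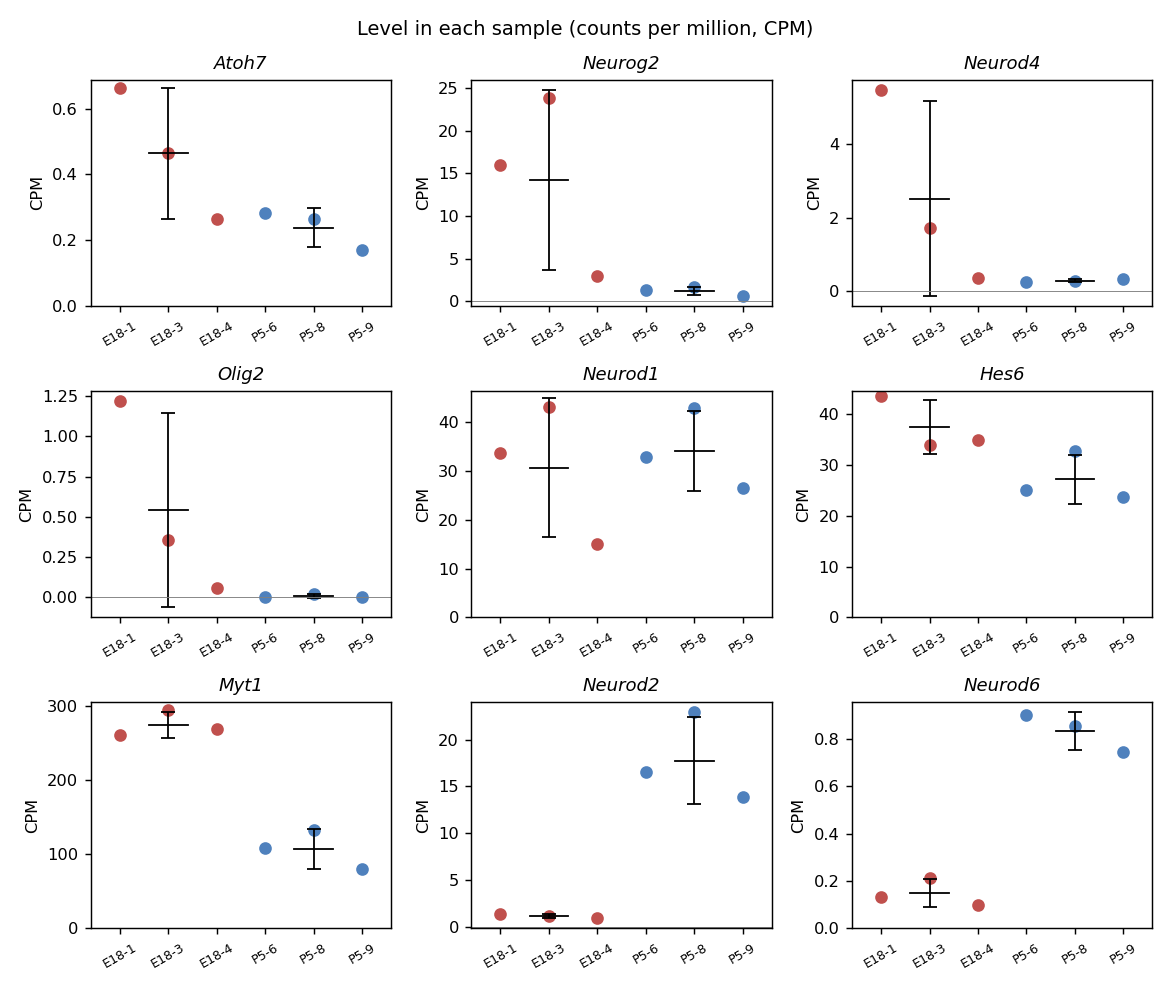
Level of each factor in the 6 samples, in CPM on a linear axis that differs between panels. Points are samples (red, E18 replicates 1, 3 and 4; blue, P5 replicates 6, 8 and 9), and the horizontal line with its bar is the mean of the 3 samples of an age with the SD, drawn over the middle sample. The ages overlapped for Atoh7 and Neurod1 and not for the other 7 factors, and replicate 4 was the lowest E18 sample for 7 factors, Hes6 and Myt1 being the exceptions.

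Neurog2, the proneural factor of progenitors about to differentiate, stood at 15.9, 23.8 and 2.93 CPM in E18 replicates 1, 3 and 4, and at 1.31, 1.64 and 0.659 CPM in P5 replicates 6, 8 and 9. Every E18 sample was above every P5 sample, but replicate 4 was much closer to the P5 samples than to the other E18 samples. The means were 14.2 ± 10.5 CPM (SD, n = 3) at E18 and 1.20 ± 0.497 CPM (SD, n = 3) at P5, which is 3.56 on the log2 scale (SE 0.685, adjusted p = 0.00407, edgeR's quasi-likelihood test). It stayed past the threshold when any single sample was left out, with log2 fold changes from 2.97 to 4.05. When E18 replicates 1 and 3 were both left out, a setting chosen after the data were seen, the log2 fold change was 1.29 (adjusted p = 0.104). The gene spans 127633135 to 127635631 on the plus strand of chromosome 3 (mm10).

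Neurod4, a factor of amacrine and bipolar cell precursors that often follows Neurog2, was at 5.46, 1.72 and 0.365 CPM at E18 in replicates 1, 3 and 4, and at 0.259, 0.284 and 0.330 CPM at P5. The E18 samples again lay above all P5 samples, replicate 4 by little, since its 33 reads compare with 23 to 31 reads in the P5 samples. The mean at E18 was 2.52 ± 2.64 CPM (SD, n = 3) and at P5 0.291 ± 0.0355 CPM (SD, n = 3), with a log2 fold change of 3.10 (SE 0.807, adjusted p = 0.0148, edgeR's quasi-likelihood test). Without P5 replicate 6 the call was lost (3.02, adjusted p = 0.0690), and without E18 replicate 1 it was kept at 1.85 (adjusted p = 0.0401). E18 replicate 4 alone against the P5 samples gave 0.33 (adjusted p = 0.779). Neurod4 lies on the minus strand of chromosome 10, from 130268152 to 130280240 (mm10).

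Olig2, a bHLH factor of neurogenic retinal progenitors and of the oligodendrocyte lineage, had 101, 40 and 5 reads in E18 replicates 1, 3 and 4, and 0, 2 and 0 reads in the P5 samples. This is 1.22, 0.357 and 0.0552 CPM at E18 against 0, 0.0203 and 0 CPM at P5, so the order of the E18 samples was the one seen for Neurod4, and the ages did not overlap. A count of 0 allows up to 3 reads, or 0.0338 CPM in P5 replicate 6 and 0.0319 CPM in P5 replicate 9. The summed level at E18 was 71.9 times that at P5, with an exact 95% interval of 19.5 to 599 that covers counting error only. A two-sided exact permutation test on the 6 levels gave p = 0.1, the smallest that 3 samples against 3 allow. Without the filter on low counts, edgeR's quasi-likelihood test gave a log2 fold change of 6.01 (adjusted p = 0.00227). Without E18 replicates 1 and 3 the ratio was 7.76, and it ran from 31.2 to 102 when E18 replicate 1, 3 or 4 or P5 replicate 6 or 9 was left out in turn. Both P5 reads were in replicate 8, and without it the P5 samples were at 0 and Olig2 was at least 15.6-fold higher at E18, taking 3 reads as the limit in each remaining P5 library. Of 8 oligodendrocyte lineage markers tested, 1 was higher at E18 and 2 were lower, beside 20.8% and 22.5% of all genes tested. The one higher was the myelin gene Mog, at 19.0, 20.7 and 23.4 CPM against 9.62, 9.74 and 6.57 CPM (log2 fold change 1.28, adjusted p = 0.000907). Those lower were the myelin gene Mag and Olig1, the relative of Olig2. Olig1 rested on 1 to 2 reads per E18 sample and 10 to 21 per P5 sample, and passed the filter on low counts through the P5 samples (-3.37, adjusted p = 0.00425). Sox10, which defines the oligodendrocyte lineage, was at 0.0213 to 0.110 CPM in the 6 samples and too low to be tested; it was named after its values were seen. Olig2 lies on the plus strand of chromosome 16, from 91225457 to 91228677 (mm10).

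Atoh7, the factor that makes progenitors competent to form RGCs, was scarce at both ages. Its levels were 0.663, 0.464 and 0.265 CPM in E18 replicates 1, 3 and 4 and 0.282, 0.264 and 0.170 CPM in the P5 samples. E18 replicates 1 and 3 were above all P5 samples and replicate 4 fell among them. The means of 0.464 ± 0.199 CPM (SD, n = 3) and 0.239 ± 0.0601 CPM (SD, n = 3) gave a log2 fold change of 0.95 (SE 0.409, adjusted p = 0.0896, edgeR's quasi-likelihood test), which misses the threshold and does not show that the ages were alike. Without E18 replicate 4 it passed, at 1.23 (adjusted p = 0.0449). The counts behind these levels were 16 to 55 reads per sample. Atoh7 lies on the plus strand of chromosome 10, from 63099651 to 63101279 (mm10).

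Neurod1, a factor of photoreceptor and amacrine cell differentiation, did not separate the ages. It was at 33.7, 43.2 and 15.1 CPM in E18 replicates 1, 3 and 4 and at 32.9, 43.0 and 26.6 CPM in the P5 samples, so E18 replicate 4 was the lowest of all 6. The means were 30.7 ± 14.3 CPM (SD, n = 3) and 34.1 ± 8.28 CPM (SD, n = 3), with a log2 fold change of -0.15 (SE 0.334, adjusted p = 0.736, edgeR's quasi-likelihood test). The sign turned to 0.17 without E18 replicate 4 and to 0.03 without P5 replicate 8, both far from the threshold. E18 replicate 4 alone against the P5 samples gave -1.17. That setting keeps only the E18 sample lowest in Neurod1 and holds no spread between E18 samples, so it cannot show a difference between the ages. Neurod1 lies on the minus strand of chromosome 2, from 79452521 to 79456751 (mm10), where the annotation places it over Cerkl on the same strand and over a noncoding RNA, Gm26755, on the other. Of its 2680 stretches of 50 bases, 259 also occur in transcripts of these neighbours, so its counts are less certain than those of the other 8 factors, which share no such stretch with another gene and overlap none.

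Neurod2 and Neurod6, factors best known from differentiated neurons of the forebrain, were the 2 that were lower at E18. Neurod2 was at 1.33, 1.18 and 0.928 CPM in the E18 samples and at 16.6, 22.9 and 13.8 CPM in the P5 samples. Its means of 1.14 ± 0.201 CPM (SD, n = 3) and 17.8 ± 4.67 CPM (SD, n = 3) differed by -3.96 on the log2 scale (SE 0.240, adjusted p = 6.12e-05, edgeR's quasi-likelihood test). The highest E18 sample was 1.43 times the lowest. Leaving out 1 sample at a time gave -3.75 to -4.11, and E18 replicate 4 alone against the P5 samples gave -4.25 (adjusted p = 0.000649). Neurod6 was at 0.133, 0.214 and 0.0994 CPM at E18 and at 0.902, 0.853 and 0.744 CPM at P5, from 9 to 24 reads per E18 sample and 70 to 84 per P5 sample. It passed the filter on low counts through the P5 samples. Its means were 0.149 ± 0.0590 CPM and 0.833 ± 0.0810 CPM (SD, n = 3 each), with a log2 fold change of -2.46 (SE 0.350, adjusted p = 0.00114), and with E18 replicates 1 and 3 left out it was -3.04 (adjusted p = 0.0159). In neither gene did the samples of the ages overlap. Neurod2 lies on the minus strand of chromosome 11, from 98325415 to 98329648, and Neurod6 on the minus strand of chromosome 6, from 55677822 to 55681263 (mm10).

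Hes6, a Hes relative that opposes Hes1 and promotes neuronal differentiation, was at 43.6, 33.9 and 35.0 CPM in the E18 samples and at 25.0, 32.8 and 23.8 CPM in the P5 samples. The lowest E18 sample and the highest P5 sample nearly touched. The means of 37.5 ± 5.28 CPM and 27.2 ± 4.86 CPM (SD, n = 3 each) gave a log2 fold change of 0.46 (SE 0.153, adjusted p = 0.0367, edgeR's quasi-likelihood test), the smallest among the factors called. This result rested on nearly every sample. It was lost without E18 replicate 1 (0.35, adjusted p = 0.138), E18 replicate 3 (0.54, 0.0552), E18 replicate 4 (0.51, 0.0548), P5 replicate 6 (0.39, 0.133) and P5 replicate 9 (0.37, 0.114), and kept without P5 replicate 8 (0.60, 0.00775). It was 0.38 with both E18 replicates 1 and 3 left out (adjusted p = 0.362). Hes6 lies on the minus strand of chromosome 1, from 91411483 to 91414038 (mm10).

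Myt1, a zinc finger factor that acts with proneural proteins to make cells insensitive to Notch, was the most abundant of the 9 genes by CPM. It was at 260.5, 294 and 269 CPM at E18 and at 109, 132.5 and 79.9 CPM at P5. The E18 samples lay close together and far above the P5 samples. The means of 274.5 ± 17.7 CPM (SD, n = 3) and 107 ± 26.3 CPM (SD, n = 3) gave a log2 fold change of 1.36 (SE 0.167, adjusted p = 0.000647, edgeR's quasi-likelihood test). In E18 replicate 4 alone against the P5 samples, the value was 1.34 (adjusted p = 0.00672), and Myt1 was then the single factor still called higher at E18. Its relative Myt1l, a factor of mature neurons, was at 335, 322 and 345.5 CPM at E18 and at 321, 311 and 317 CPM at P5 (log2 fold change 0.08, adjusted p = 0.436), and St18, the other relative, was at 0.906 to 2.75 CPM (0.39, adjusted p = 0.444). Myt1 lies on the plus strand of chromosome 2, from 181763332 to 181827797 (mm10).

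**Figure D2:**
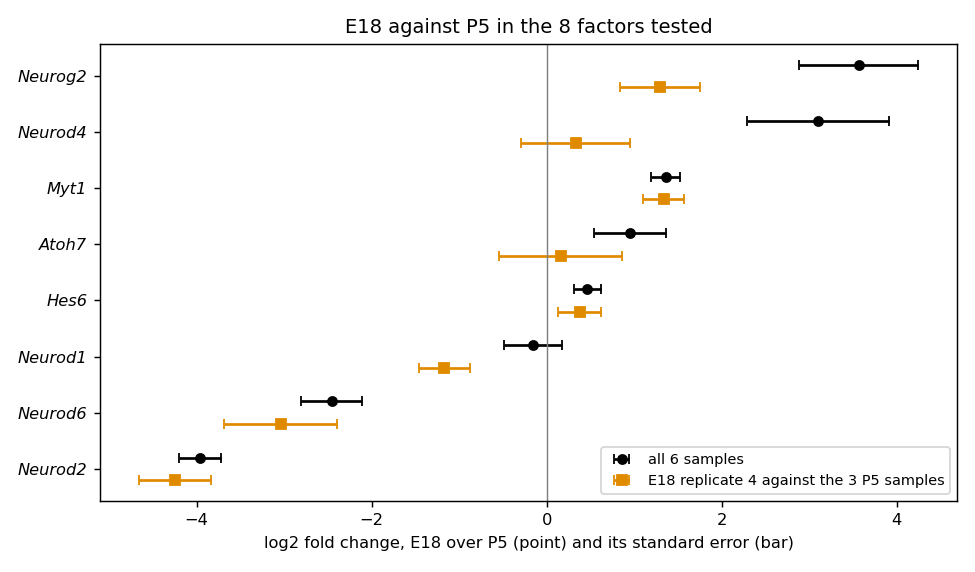
Log2 fold change of E18 over P5 (horizontal axis) for the 8 factors tested, with the standard error of edgeR's quasi-likelihood fit as the bar. Black circles use all 6 samples and orange squares use E18 replicate 4 against the 3 P5 samples. Neurog2 moved from 3.56 to 1.29 and Neurod4 from 3.10 to 0.33, while Myt1, Neurod2 and Neurod6 kept values of 1.34, -4.25 and -3.04.

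The order of the factors can be compared only per length. Divided by the kilobases of exon of each gene, Myt1 was highest at E18 with 38.2 ± 2.46 CPM per kb (SD, n = 3), followed by Hes6 with 20.7 ± 2.92, Neurod1 with 11.2 ± 5.24 and Neurog2 with 6.38 ± 4.73. Neurod4, Neurod2, Atoh7, Olig2 and Neurod6 followed with means of 0.752, 0.364, 0.285, 0.215 and 0.0692 CPM per kb. At E18, from Neurod1 downwards, each factor's samples overlapped those of the next in the order. At P5, Hes6 (15.0 ± 2.69 CPM per kb), Myt1 (14.9 ± 3.66) and Neurod1 (12.5 ± 3.03) overlapped at the top, and Neurod2 stood apart below them at 5.66 ± 1.49. Neurog2 (0.539) and Neurod6 (0.388) overlapped, and Atoh7 (0.147), Neurod4 (0.0870) and Olig2 (0.00268 CPM per kb) came last without overlap with their neighbours.

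Within the Neurod group, the composition per kilobase changed with age. Neurod1 made up 85.4%, 94.1% and 92.5% of the summed Neurod level in E18 replicates 1, 3 and 4 and 66.8% to 67.6% in the P5 samples. Neurod2 made up 2.23% to 4.94% at E18 and 29.6% to 31.0% at P5. The share of Neurod4 was 11.3%, 3.06% and 1.82% in E18 replicates 1, 3 and 4 and at most 0.676% at P5, and that of Neurod6 stayed under that of Neurod2 in all 6 samples, at 0.426% to 2.37%. These are shares of one sum, so a gain of 1 gene lowers the others.

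The factors differed in how far the E18 samples lay apart. For Neurod4 the highest E18 sample was 15.0 times the lowest and for Neurog2 8.13 times, more than for 98.7% and 99.3% of genes whose mean level was within 2-fold. Neurod1, at 2.86 times, exceeded 99.7% of such genes. Neurod2 (1.43 times), Hes6 (1.28 times) and Myt1 (1.13 times) exceeded 87.9%, 90.8% and 62.3%. Atoh7, Neurod2, Neurod4 and Olig2 fell in the order replicate 1, 3, 4, which 15.4% of all genes tested showed, and Neurog2, Neurod1 and Neurod6 in the order 3, 1, 4, which 15.9% showed.

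Markers of cells other than RGCs moved in the same samples. For comparison with the marker counts here and below, 20.8% of all genes tested were called higher at E18 and 22.5% lower. Of 14 retinal progenitor markers, 9 were higher at E18 and 0 lower (median log2 fold change 2.96), and their summed level was 424, 253 and 139 CPM in E18 replicates 1, 3 and 4 and 111 to 133 CPM at P5. Most of the P5 sums came from Six6 (58.6 to 72.5 CPM at P5) and Six3 (35.7 to 39.4 CPM), neither of which was called. In E18 replicate 4 these were at 58.1 and 55.9 CPM. Fgf15, a growth factor of neurogenic progenitors, was at 21.2, 4.27 and 0.883 CPM at E18 and at most 0.316 CPM at P5. Sox2, which marks progenitors and some amacrine cells, was at 45.7, 69.3 and 0.950 CPM at E18 and at 0.790 to 1.48 CPM at P5, a difference that missed the threshold without P5 replicate 6 (adjusted p = 0.0502). Of 14 markers of dividing cells, 9 were higher and 0 lower (median 1.39), and their sums were 363, 153 and 99.2 CPM at E18 and 74.9 to 95.2 CPM at P5. Mki67, present in cycling cells, was at 68.8, 16.2 and 2.84 CPM at E18, and its call (log2 fold change 3.64, adjusted p = 0.0192) was lost without E18 replicate 1 (2.03, 0.0593), P5 replicate 6 (3.50, 0.0860) or P5 replicate 9 (3.27, 0.0672). The counts of markers called higher depended on single samples. Progenitor markers called numbered 6 without E18 replicate 1, and 1, 5 and 3 without P5 replicates 6, 8 and 9. Dividing-cell markers called numbered 3 and 6 without E18 replicates 1 and 3, 1 and 2 without P5 replicates 6 and 9, and 13 without E18 replicate 4. Of the progenitor and dividing-cell markers, 11 of 14 and 13 of 14 fell in the order replicate 1, 3, 4, as Atoh7, Neurod4, Olig2 and, among the factors lower at E18, Neurod2 did.

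Photoreceptor and amacrine markers divided likewise among the E18 samples. Of 11 photoreceptor markers tested, of 12 listed, 4 were higher at E18 and 2 lower (median 0.58), with sums of 29.6, 12.5 and 5.41 CPM at E18 and 17.1 to 25.0 CPM at P5. Otx2, which specifies photoreceptor precursors, was at 11.1, 3.40 and 0.619 CPM at E18. Its target Crx followed with 6.15, 2.78 and 0.773 CPM, and 8 of the 11 fell in the order replicate 1, 3, 4. Of 11 amacrine markers tested, of 12 listed, 5 were higher and 1 lower (median 2.57), with sums of 977 to 1297 CPM at E18 and 1148 to 1242 CPM at P5. Tfap2b, a transcription factor of amacrine cells, was at 47.5, 119 and 1.62 CPM in E18 replicates 1, 3 and 4 and at 1.01 to 1.55 CPM at P5, and 9 of the 11 fell in the order 3, 1, 4, as Neurog2, Neurod1 and, among the factors lower at E18, Neurod6 did. Amacrine markers called higher numbered 8 without E18 replicate 4 and 3 without P5 replicate 6. Ptf1a, the bHLH factor of amacrine and horizontal cells, named after its values were seen, was at 0.627, 0.972 and 0.110 CPM at E18 and at most 0.0638 CPM at P5, too low to be tested. Most markers of progenitors, dividing cells, photoreceptors and amacrine cells were highest in E18 replicate 1 or 3. Leaving out both, a setting chosen after the data were seen, gave medians of 0.15, 0.18, -0.57 and -0.10, in that order. That setting drops the samples high in these markers and leaves 1 E18 sample, so it cannot show whether the markers differed between the ages. The part of cells of these types in the levels of the 9 factors was not tested. In bulk samples, fewer cells of a type and less RNA per cell cannot be told apart.

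**Figure D3:**
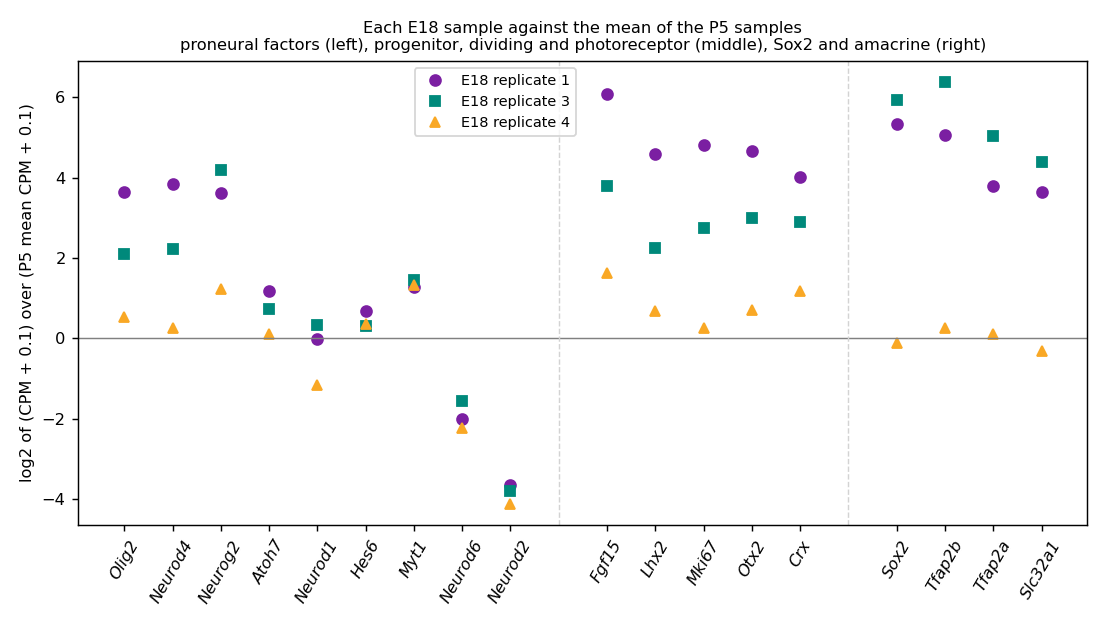
Each E18 sample against the mean of the 3 P5 samples, as log2 of (CPM + 0.1) over (P5 mean CPM + 0.1), for the 9 factors (left), progenitor, dividing-cell and photoreceptor markers (middle) and Sox2 with amacrine markers (right). Purple circles are E18 replicate 1, green squares replicate 3 and orange triangles replicate 4. Replicate 4 lay near 0 for Neurod4, Atoh7, Mki67 and Tfap2b. All 3 E18 samples lay from 1.28 to 1.46 for Myt1 and from -4.12 to -3.65 for Neurod2.

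The RGC markers themselves were abundant in all 6 samples. Their sum over 12 genes was 6568, 6537 and 7460 CPM in E18 replicates 1, 3 and 4 and 7477 to 8760 CPM at P5, with 2 genes higher at E18 and 4 lower (median -0.08). Thy1, the surface protein used to hold the cells on the dishes, was among those lower at E18 (log2 fold change -1.16, adjusted p = 0.00197). Markers of other cells were as follows, beside 20.8% of all genes tested called higher at E18 and 22.5% lower. Of 6 bipolar markers tested, 0 were higher and 4 lower (median -0.86), and of 3 horizontal cell markers 1 was higher and 1 lower (median 0.41). The 8 oligodendrocyte lineage markers tested had a median of 0.19, and of 7 markers of Müller glia and astrocytes, 1 was higher and 1 lower (median 0.35). Of 5 microglial markers, 0 were called, with sums of 1.35 to 2.35 CPM, and of 5 endothelial and pericyte markers, 1 was higher and 2 lower (median 0.52). No listed marker of these cell types was at 0 in all 6 samples.

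The dimer partners and inhibitors of the proneural factors did not move as a block. Of the 3 E proteins, Tcf3 was higher at E18 (29.6, 24.2 and 27.2 CPM against 17.1, 20.8 and 14.3 CPM, log2 fold change 0.63, adjusted p = 0.0110) and Tcf4 lower (45.0, 36.6 and 25.6 CPM against 55.4, 65.8 and 49.9 CPM, -0.67, adjusted p = 0.0229), and Tcf12 was not called (0.46, adjusted p = 0.0939). The call for Tcf4 was lost without E18 replicate 3 (-0.69, adjusted p = 0.0631), P5 replicate 6 (-0.71, 0.0637) or P5 replicate 8 (-0.58, 0.0588), and Tcf12 was called without P5 replicate 8 (0.73, 0.00313). Among the 4 Id genes, Id3 was higher at E18, at 4.20, 1.21 and 1.24 CPM against 0.181 to 0.305 CPM (3.21, adjusted p = 0.00242). Id1, Id2 and Id4 were not called, although Id2 was without P5 replicate 6 (0.58, adjusted p = 0.0159), and Id4, the most abundant, was at 87.9 to 99.5 CPM at E18 and 102 to 112 CPM at P5. The median of the Id genes was 0.32 and that of the E proteins 0.46.

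Of 11 listed Hes and Hey repressors and their relatives, among them Bhlhe40 and Bhlhe41, 9 were tested. Of the 9, 1 was higher at E18 and 2 were lower (median 0.013), beside 20.8% and 22.5% of all genes tested. Bhlhe40, a repressor better known from the circadian clock, was the one higher at E18 (0.60, adjusted p = 0.0136), and its relative Bhlhe41 (-0.44, adjusted p = 0.0491) and Hes7, of the somite clock (-1.91, adjusted p = 0.00941), were lower. Hes7 rested on 5 to 12 reads per E18 sample and 31 to 42 per P5 sample, and passed the filter on low counts through the P5 samples. Bhlhe41 kept its call only without P5 replicate 8 among the settings with 1 sample left out, with adjusted p of 0.0708 and 0.177 without E18 replicates 1 and 3, 0.131 without E18 replicate 4, and 0.0852 and 0.143 without P5 replicates 6 and 9. The Notch targets Hes1 and Hes5 were not called with all samples, though both were without E18 replicate 4 (2.21, adjusted p = 0.0432, and 1.97, adjusted p = 0.0299). Hes1 was at 8.97, 0.981 and 0.552 CPM in E18 replicates 1, 3 and 4 and at 0.752 to 1.48 CPM at P5 (1.70, adjusted p = 0.154), so it was high in E18 replicate 1 and within or below the P5 range in replicates 3 and 4. Hes5 was at 5.97, 1.31 and 1.07 CPM at E18 and at 0.563 to 1.31 CPM at P5 (1.59, adjusted p = 0.0751).

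Of 23 other tissue-restricted bHLH factors, 12 were tested, 3 were higher at E18 and 3 lower (median -0.08), shares of 25.0% each beside 20.8% and 22.5% of all genes. Nhlh2, a bHLH factor of newly formed neurons, was at 59.2, 76.0 and 43.3 CPM at E18 and at 16.0 to 28.1 CPM at P5 (1.48, adjusted p = 0.00214). Bhlhe22, a factor of amacrine and bipolar subtypes, was lower at E18, with means of 10.1 ± 2.39 CPM and 21.2 ± 2.91 CPM (SD, n = 3 each) (-1.07, adjusted p = 0.0024). The other genes called were below 1.5 CPM in every sample, namely Atoh8 and Tal1, higher at E18, and Bhlha9 and Olig1, lower. Of these, Atoh8, Tal1 and Bhlha9 were no longer called without E18 replicate 1 (adjusted p = 0.0865, 0.0561 and 0.0760), nor were Atoh8 and Bhlha9 without P5 replicate 6 (0.0681 and 0.0607) or P5 replicate 9 (0.0876 and 0.0892), nor Bhlha9 without E18 replicate 3 (0.0843). Atoh8, at 21 to 55 reads per E18 sample and 0 to 12 per P5 sample, passed the low-count filter through the E18 samples. So did Tal1, at 29 to 38 reads per E18 sample and 3 to 14 per P5 sample. Olig3 and Hand2 had no count in any sample.

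**Figure D4:**
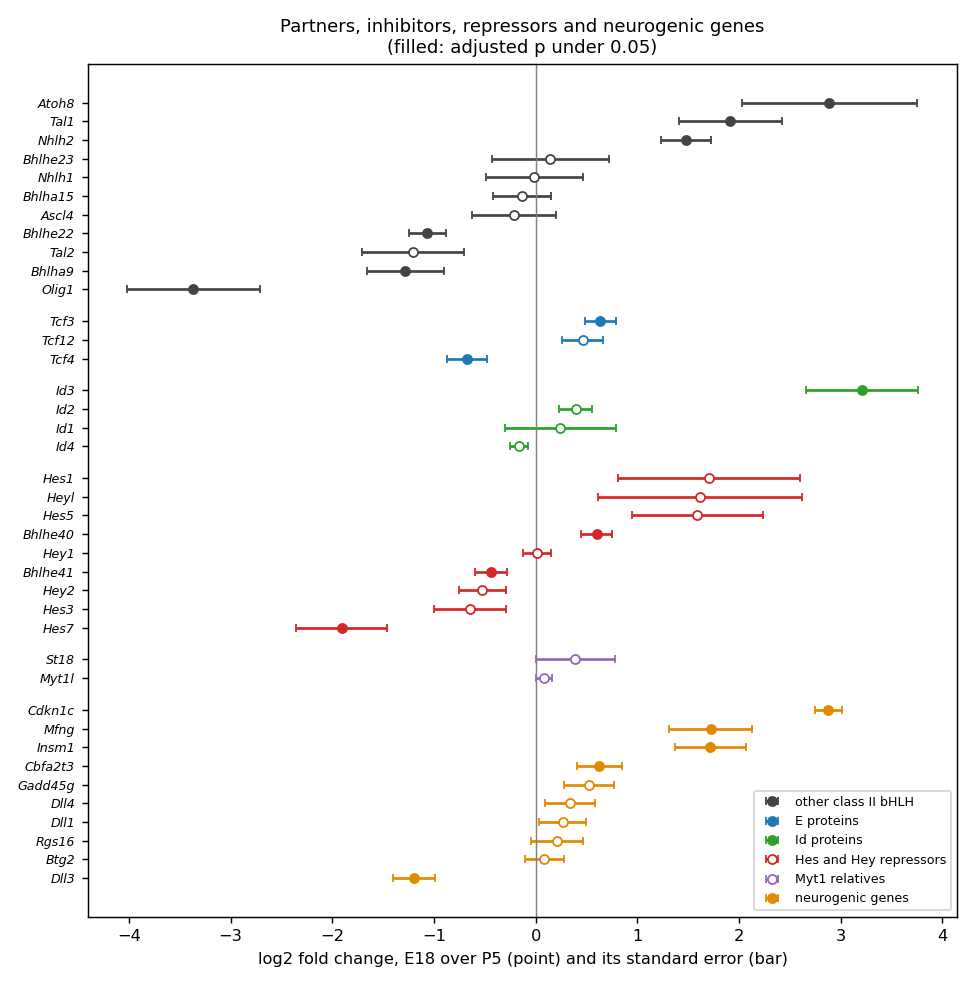
Log2 fold change of E18 over P5 (horizontal axis) with its standard error for genes of 6 lists. The lists are other tissue-restricted bHLH factors, E proteins, Id proteins, Hes and Hey repressors with their relatives, Myt1 relatives and genes of the neurogenic state. Filled points passed an adjusted p of 0.05 in edgeR's quasi-likelihood test and open points did not. Heyl and Hes1 had the widest bars, and both were highest in E18 replicate 1.

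Of 10 genes of the neurogenic state, among them Notch ligands and targets of proneural factors, 4 were higher at E18 and 1 lower (median 0.43). Over all genes tested, 20.8% were higher and 22.5% lower. Cdkn1c, which encodes the cell cycle inhibitor p57, was at 59.6, 57.2 and 60.5 CPM at E18 and at 6.81 to 9.31 CPM at P5 (2.88, adjusted p = 2.05e-05). It was as high in E18 replicate 4 as in the others, unlike Neurog2. Insm1, a zinc finger factor of newborn neurons, was at 8.08 to 10.1 CPM against 1.36 to 4.17 CPM (1.72, adjusted p = 0.00511), and Mfng, a modifier of Notch, was higher too (1.72, adjusted p = 0.0101), as was the corepressor Cbfa2t3 (0.63, adjusted p = 0.0452). The ligand genes Dll1 (0.26, adjusted p = 0.377) and Dll4 (0.34, adjusted p = 0.291) were not called, and Dll3, which hinders Notch signalling within the cell, was lower at E18 (-1.20, adjusted p = 0.00247). Cbfa2t3 was called only with all samples or without P5 replicate 8, with adjusted p of 0.0688 to 0.137 without each of E18 replicates 1, 3 and 4 and P5 replicates 6 and 9. In E18 replicate 4 alone against the P5 samples, 1 of the 10 was called higher, Cdkn1c.

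Of 21 genes known as downstream of Atoh7 in RGCs, 11 were higher at E18 and 2 lower (median 0.41), beside 20.8% and 22.5% of all genes tested. Sox11, a factor of immature neurons, was at 833, 943 and 832 CPM at E18 and at 224, 283 and 119 CPM at P5 (2.06, adjusted p = 0.000806). Dlx2 (2.91, adjusted p = 0.00730) and Dlx1 (2.84, adjusted p = 0.000697) had larger fold changes at levels under 1.2 CPM. Both had 1 to 16 reads per P5 sample and passed the filter on low counts through the E18 samples. Pou4f1, a defining RGC factor, was not called (0.15, adjusted p = 0.417), and Gap43, a protein of growing axons, was (0.51, adjusted p = 0.00804). Ebf2 (-1.25, adjusted p = 0.000961) and Pou4f3 (-0.54, adjusted p = 0.0139) were lower at E18, Pou4f3 no longer past the threshold without E18 replicate 1 (adjusted p = 0.0531) or 3 (0.0660). The call of Pou4f1 appeared without P5 replicate 8 (0.31, adjusted p = 0.0225). With E18 replicates 1 and 3 left out, 6 of the 21 were called higher.

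The genes whose levels followed each factor most closely were sought among those that averaged 5 CPM or more, by Pearson's r of log2(CPM + 1) over the 6 samples. The 6 points fall into the 2 ages, so r describes these samples and mostly repeats the difference between ages where that is large. Neurod4 was most like Notch1 (r = 0.999), the receptor of the pathway that proneural factors oppose, and Cenpf (0.985), a protein of dividing cells. Cenpf was also among those closest to Atoh7 (0.993), after Cd164 (0.995). Notch1 was at 26.0, 6.17 and 1.59 CPM in E18 replicates 1, 3 and 4 and at 1.32 to 1.51 CPM at P5, so its E18 samples fell in the order of those of Neurod4. Neurog2 was most like Bcl2l13 (0.993) and Rai14 (0.991), and Neurod1 like Macf1 (0.973) and Pop5 (0.967). Myt1 was most like Igf2bp3 (0.999), an RNA-binding protein of fetal tissue, at 60.3, 73.9 and 61.0 CPM at E18 and 16.1, 20.1 and 9.67 CPM at P5, and like Rps15a (0.999). The closest to Neurod2 were Ube2f (1.000) and 9130024F11Rik (0.998), to Neurod6 Armc1 (0.998) and Kif5b (0.997), and to Hes6 Sufu (0.997) and Gt(ROSA)26Sor (0.993).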

How the data were processed

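RNA-seq was measured in RGCs from 3 E18 and 3 P5 samples, grouped by their titles. Libraries were made with TruSeq and RiboZero Gold by the protocol, while the sample labels name polyA RNA. The authors sequenced 100-base paired-end reads, mapped them to mm10 (STAR), assigned them to RefSeq genes (HT-seq) and deposited the raw counts. Their normalized counts, a signal that the authors scaled by library size, were left aside. The log2 fold changes and the p-values deposited by the authors, from their own edgeR comparison, and a rank column were not used either. The strand setting and the handling of reads with several hits are not stated. CASAVA 1.8.2 is named in the submitters' processing notes.

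Raw counts were normalized by TMM and tested, E18 against P5, by the quasi-likelihood method in edgeR 4.0.16 (R 4.3.3) on the 16449 of 24060 genes kept by its filter on low counts (a minimum count of 10), with Benjamini-Hochberg adjustment. No covariate was used. CPM values use TMM-scaled library sizes, and levels per kb use the exon lengths of GENCODE M21, whose mm10 coordinates are given. Totals were 81213639 to 114512853 reads per sample. Samples of one age differed by more than sampling noise, with chi-square values of 30.5 to 141 per degree of freedom, so none was counted as a duplicate. Exact intervals used scipy 1.17.1 (Python 3.11.15). Intervals and floors cover counting error only. The fit was tested on simulated data.

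The alternatives were RLE and upper-quartile normalization, DESeq2 1.42.0, edgeR's exact test, no filter, a filter of 1 CPM in 3 samples, each sample left out in turn and, chosen after the data were seen, E18 replicates 1 and 3 left out together. The members and the gene lists were chosen with earlier results of these data known. Genes named are the 9 factors, every tested gene of the bHLH, E protein, Id, Hes and Hey, Myt1 and neurogenic lists, the 3 most abundant and the 3 with the largest rise and fall past the threshold in the other lists, and the 2 nearest genes by correlation. Any other is said to have been named after its values were seen. The values of some single genes of the lists are left out here. Promoter sequences are those of RefSeq (GRCm38.p6).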

Additional observations from a re-analysis of the deposited data

How the results depend on the processing

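Under RLE and upper-quartile normalization, DESeq2 and edgeR's exact test, 4 factors were called higher at E18 and 2 lower, as in the report, and each of the 8 factors tested kept its direction and its side of the threshold. With no filter on low counts, 5 were higher, with Olig2 added. With a filter of 1 CPM in 3 samples, 3 were higher and 1 was lower (Neurod2), because Neurod4, Neurod6 and Atoh7 were not tested. Leaving out each sample in turn gave 3 to 5 factors higher and 2 lower. In all, 4575 to 8796 genes were called, against 7135 with every sample, the fewest without E18 replicate 3. The factors counted as higher include Olig2, which entered the test and was called without E18 replicate 4 or P5 replicate 6, 8 or 9. In those settings Olig2 passed the filter on low counts through the E18 samples, where it is high. It had 0, 2 and 0 reads in P5 replicates 6, 8 and 9, so these calls are no separate support. Without P5 replicate 6, Neurod4 and Hes6 were not called by edgeR's quasi-likelihood test (adjusted p = 0.0690 and 0.133). Neurod1 turned sign, from -0.48 to 0.17 over the settings with 1 sample left out (0.17 without E18 replicate 4 and 0.03 without P5 replicate 8). Without E18 replicates 1 and 3, 1 factor was higher (Myt1) and 3 were lower (Neurod1, Neurod2 and Neurod6), and 1633 genes were called. There the remaining E18 sample is assumed to vary like the P5 samples, and fewer samples entered. The median log2 fold change of all genes moved by less than 0.1 under every setting. No paired analysis was possible because the ages share no replicate number. With age means subtracted, Notch1 and Kif11 followed Neurod4 (r = 0.998 for both), and Sufu was again the nearest gene to Hes6 (0.999). Counts of 16 to 55 reads limit Atoh7, 9 to 84 Neurod6 and 0 to 101 Olig2.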
